A study of Saccharomyces cerevisiae with 9 samples.

Results

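The mitochondrial genome of *Saccharomyces cerevisiae* encodes 8 proteins, and this section describes the mRNAs of all 8 genes in early, mid and late log culture. They were chosen by their identifiers in the count files and were *COX1* (Q0045), *ATP8* (Q0080), *ATP6* (Q0085), *COB* (Q0105), *OLI1* (Q0130), *VAR1* (Q0140), *COX2* (Q0250) and *COX3* (Q0275), or 8 of 7127 gene rows. The study sequenced poly(A)-selected RNA from 9 cultures of 1 wild-type strain, 3 in each subphase of log growth, to learn how the transcriptome changes as cultures become denser. Cultures were harvested at an OD600, the optical density that measures cell density, of 0.2 to 0.3 (early log), 0.5 to 0.7 (mid log) or 0.8 to 1 (late log). All 9 were of mating type MATa with the auxotrophic markers his3-11, ura3-1, ade2-1, trp1-1 and the double leu2 allele of mutations 3 and 112 and with can1-100, all carried an epitope-tagged allele of an RNA polymerase I subunit, RPA135-(HA)3-(His)7::TRP1, and all were grown in YPD, a rich glucose medium. Growth on glucose represses many genes of respiration in this yeast, so the medium limits what these cultures can show of respiring cells.

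Yeast mitochondria transcribe their own genome with a single-subunit RNA polymerase, Rpo41, and its specificity factor Mtf1, which start at a short conserved motif. The long transcripts are then cut and spliced, and each mRNA is translated on mitochondrial ribosomes with the help of activators made from nuclear genes. The products include Cox1, Cox2 and Cox3 of cytochrome c oxidase and Cob of the cytochrome bc1 complex. They also include Atp6, Atp8 and the ring subunit Atp9 (from *OLI1*) of the ATP synthase, and Var1 of the small mitochondrial ribosomal subunit. Mitochondrial mRNAs of this yeast carry no long poly(A) tail. Poly(A) selection therefore captures them poorly, and the counts below are those of molecules that passed such a selection, not of the whole mitochondrial mRNA pool. More mitochondria per cell and more mRNA per mitochondrion cannot be told apart in RNA from whole cultures.

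All 8 genes lie on the plus strand of the mitochondrial chromosome of assembly R64, which is 85779 bases long and has a GC content of 17.1%, against 38.3% in the nuclear chromosomes. *COX1* spans MT:13818-26701 with 8 exons and 7 introns, and *COB* spans MT:36540-43647 with 6 exons and 5 introns. The other members have 1 exon each: *ATP8* at MT:27666-27812, *ATP6* at MT:28487-29266, *OLI1* at MT:46723-46953, *VAR1* at MT:48901-50097, *COX2* at MT:73758-74513 and *COX3* at MT:79213-80022. Of the 1605 exon bases of *COX1*, 972 are shared with the annotated intron reading frames AI1 to AI5_ALPHA, and of the 1158 of *COB*, 756 are shared with BI2 to BI4. A read in a shared stretch overlaps more than 1 gene, so levels per length were computed on the unshared 633 bases of *COX1* and 402 bases of *COB*. *VAR1* had the lowest GC content of the members at 10.4% and the longest run of A, 9 bases, while *OLI1* had the highest GC content at 33.3%. Every 50-base window of the members' exons occurred once in the nuclear and mitochondrial genome.

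The conserved start motif, ATATAAGTA, occurred 14 times in the mitochondrial genome over both strands, 11 of them on the plus strand. It was found in 13 of 285 mitochondrial windows of 300 bases (4.56%) and in 242 of 40229 nuclear windows (0.602%). The windows around the nearest plus-strand copy upstream of each member are shown because they group the genes by candidate transcript, with the motif in capitals (RefSeq, R64, plus strand, 40 bases each).
*COX1*, *ATP8* and *ATP6* (MT:13334-13373): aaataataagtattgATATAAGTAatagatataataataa
*COB* (MT:34863-34902): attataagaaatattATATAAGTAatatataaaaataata
*OLI1* and *VAR1* (MT:46134-46173): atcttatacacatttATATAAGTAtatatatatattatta
*COX2* and *COX3* (MT:65369-65408): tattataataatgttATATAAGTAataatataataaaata
The motif lay 469 bases before the coding start of *COX1*, 574 before *OLI1* and 1662 before *COB*. It lay 2752 bases before *VAR1*, 8374 before *COX2*, 13829 before *COX3*, 14317 before *ATP8* and 15138 before *ATP6*. A match of these letters is not evidence of a start site.

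The coding sequences of the shortest members are shown because *ATP8* was the member with no read and *OLI1* the one with the most reads per kilobase. Capitals mark the in-frame codon that yeast mitochondria read as threonine and the standard code reads as leucine, of which each had 1.
*ATP8* (MT:27666-27812, 49 codons with the stop): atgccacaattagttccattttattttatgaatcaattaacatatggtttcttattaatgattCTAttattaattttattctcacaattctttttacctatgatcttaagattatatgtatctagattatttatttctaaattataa
*OLI1* (MT:46723-46953, 77 codons with the stop): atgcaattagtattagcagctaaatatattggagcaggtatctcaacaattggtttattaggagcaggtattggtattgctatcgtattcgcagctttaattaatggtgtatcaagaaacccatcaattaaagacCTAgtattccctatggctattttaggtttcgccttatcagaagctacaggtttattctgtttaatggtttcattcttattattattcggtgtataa

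Across the 9 libraries, 22830165 to 34358259 reads per library were assigned to genes. The scaling factors that edgeR's TMM method gave were 1.36 to 1.47 for early log libraries, 0.70 to 1.01 for mid log libraries and 0.88 to 0.90 for late log libraries. Early log replicate 3 and mid log replicate 1 stood apart from the other libraries of their subphase, with a chi-square per degree of freedom of 435 to 662 against them and of 8.65 to 37.1 among all other pairs within a subphase. The paper also describes an early log library (C) and a mid log library (A) that deviated from their groups. It places their OD600 at the top of the early range and at the bottom of the mid range. By the study's methods, early log 1 and 2 were sequenced in run 1, all of mid log in run 2, and early log 3 and all of late log in run 3. Mid log and run 2 therefore cannot be told apart, and a comparison of late with early log inside 1 run has only 1 early library.

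The 8 genes together received 3458 of 246441289 counted reads, that is 177 to 586 reads per library. Of the nuclear genes of the same complexes, 3 taken as examples were counted far more often than the 8 together. Within single libraries, *COX4* of cytochrome c oxidase had 4115 to 7269 reads, *CYT1* of the bc1 complex 2670 to 4541, and *ATP1* of the ATP synthase 16616 to 31564. Other subunit genes reached lower counts, with 415 to 3850 reads for *QCR6* of the bc1 complex and 146 to 2550 for *ATP14* of the ATP synthase. The members' share of counted reads, in counts per 1000000 reads assigned to genes (CPM), was 19.0, 14.3 and 6.71 CPM in early log, 9.87, 20.9 and 18.5 CPM in mid log, and 11.0, 13.1 and 12.7 CPM in late log. The highest and the lowest share both fell outside late log, whose 3 libraries were close together. The share averaged 12.3 ± 1.16 CPM in late log and 13.3 ± 6.20 CPM in early log, a ratio of 0.921 (exact two-sided permutation p = 0.8, n = 3 each). It averaged 16.4 ± 5.80 CPM in mid log, 1.23 times the early log mean (exact permutation p = 0.6, n = 3 each), and late log was 0.748 times mid log (exact permutation p = 0.4, n = 3 each). With 3 cultures against 3 such a test cannot go below 0.1. Leaving out early log 1 turned the ratio of late to early log to 1.17, and leaving out early log 3 turned that of mid to early log to 0.987, so neither direction was stable. On the TMM scale, added here after seeing the data, the sum averaged 9.64 ± 4.70 CPM in early log, 21.7 ± 10.4 CPM in mid log and 13.8 ± 1.34 CPM in late log (SD, n = 3 each). The ratio of late to early log was then 1.43 (exact permutation p = 0.2, n = 3 each), the opposite direction, that of mid to early log 2.25 (exact permutation p = 0.3, n = 3 each) and that of late to mid log 0.635 (exact permutation p = 0.4, n = 3 each). On neither scale did the sum pass a test between subphases.

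*COX1*, *OLI1* and *ATP6* held 3370 of the 3458 reads, or 97.5%. *COX1* ranked above 37.2% of all gene rows by mean count, *OLI1* above 30.7% and *ATP6* above 19.5%. In CPM on library totals per kilobase of unshared exon, *OLI1* stood highest at 20.8 ± 10.6, followed by *COX1* at 12.8 ± 3.71 and *ATP6* at 0.970 ± 0.624 (SD, n = 9). The first 2 overlapped, since the density of *OLI1* was 0.751 to 2.51 times that of *COX1* within single libraries. *COB* (0.157 CPM per kilobase), *VAR1* (0.125), *COX3* (0.114) and *COX2* (0.0723) followed, rested on 16, 37, 22 and 13 reads in all, and cannot be ordered among themselves at this depth.

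**Figure D1:**
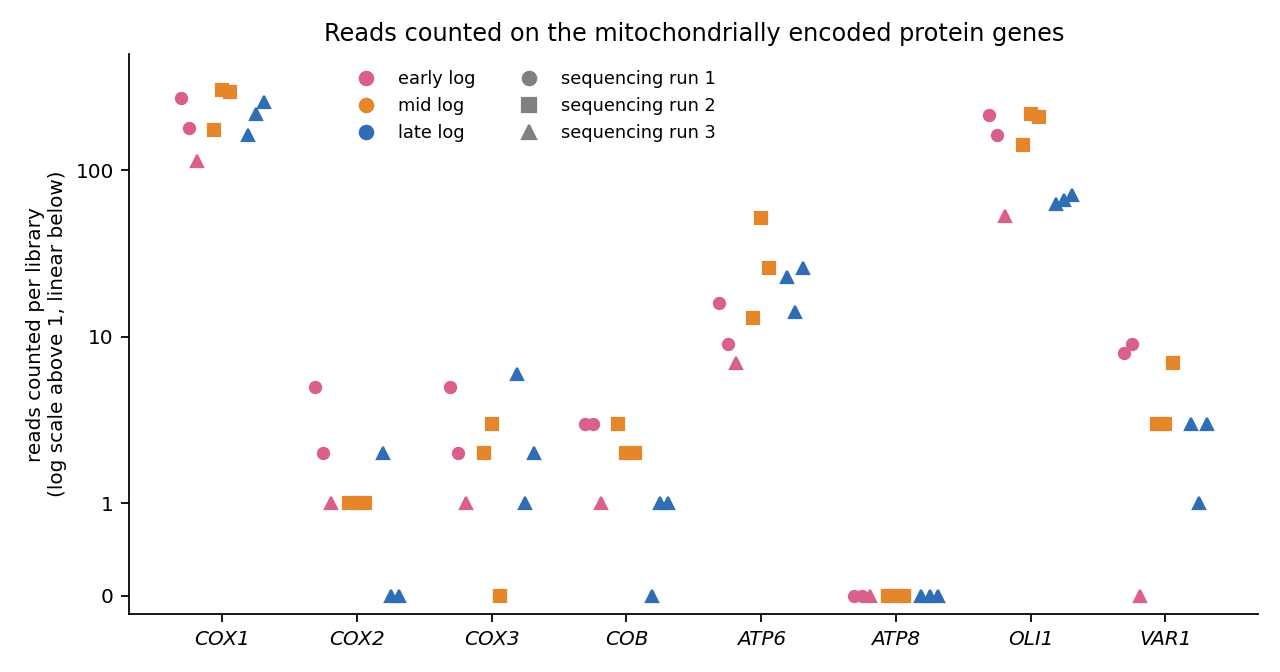
Reads counted on each member in each library (points, on an axis that is logarithmic above 1 and linear below), coloured by subphase, with the sequencing run as the marker shape. *COX1* and *OLI1* had 53 to 306 reads in every library and *ATP6* 7 to 52, while *COX2*, *COX3*, *COB* and *VAR1* had 9 or fewer and *ATP8* had 0.

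*ATP8*, which encodes a small membrane subunit of the ATP synthase, had 0 reads in each of the 9 libraries. A count of 0 in 246441289 reads allows a level of up to 0.0122 CPM (3 counts over all libraries, counting error only). *ATP8* lies between *COX1* and *ATP6* behind the same upstream motif, and at the reads per base of *ATP6* its 147 bases would have received 35.1 reads. Its sequence above is as distinct from the rest of the genome as the other members' (every 50-base window is unique), and its GC content of 19.0% lay between those of *VAR1* and *ATP6*. Whether so short a gene loses reads in the counting was not tested.

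*COX1* encodes the heme- and copper-bearing catalytic subunit of cytochrome c oxidase. It had 273, 179 and 114 reads in early log, 175, 306 and 294 in mid log, and 164, 217 and 259 in late log. After TMM scaling these were 7.18, 5.11 and 2.94 CPM in early log, 5.05, 15.04 and 14.4 CPM in mid log, and 7.67, 10.5 and 10.4 CPM in late log. Each late log value was above each early log value, as was the case for 37.9% of all tested genes. Mid log replicate 1 sat among the early cultures, and the other mid log cultures were the highest of all. *COX1* averaged 9.53 ± 1.61 CPM in late log and 5.08 ± 2.12 CPM in early log (SD, n = 3 each), a log2 fold change of 0.86 ± 0.33 (SE). Its adjusted p was 0.0496 (quasi-likelihood test of edgeR, adjusted by the Benjamini-Hochberg method over all tested genes). That call sat at the threshold of 0.05. Without early log 2, late log 1, late log 2 or late log 3 the log2 fold change stayed at 0.86, 0.99, 0.77 and 0.80 but no longer passed (edgeR adjusted p = 0.103, 0.0608, 0.136 and 0.130). On library totals the value itself was smaller (0.27, adjusted p = 0.461) and the groups overlapped.

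*ATP6*, which encodes the subunit of the ATP synthase that forms its proton channel, had few reads, and its fold changes in late and in mid over early log were above those of *COX1* and *OLI1*. It had 16, 9 and 7 reads in early log, 13, 52 and 26 in mid log, and 23, 14 and 26 in late log. After TMM scaling these were 0.421, 0.257 and 0.180 CPM in early log, 0.375, 2.56 and 1.28 CPM in mid log, and 1.08, 0.680 and 1.04 CPM in late log. All late log values lay above all early log values, on library totals too, as was the case in this direction for 37.9% of all tested genes on the TMM scale. *ATP6* averaged 0.932 ± 0.220 CPM in late log and 0.286 ± 0.123 CPM in early log (SD, n = 3 each), which gave a log2 fold change of 1.64 ± 0.37 (SE, edgeR adjusted p = 0.00573). It kept its direction and its call when any single library was left out (log2 fold change 1.39 to 2.03), and on library totals (1.05, adjusted p = 0.0338). It also exceeded 10 reads in all 3 late log libraries and in only 1 early log library, so it entered the test mainly through the group where it was high.

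*OLI1*, which encodes the ring subunit that turns as protons pass through the ATP synthase, showed no settled direction in late over early log. It had 216, 164 and 53 reads in early log, 142, 219 and 209 in mid log, and 63, 66 and 71 in late log. After TMM scaling these were 5.68, 4.68 and 1.37 CPM in early log, 4.10, 10.8 and 10.2 CPM in mid log, and 2.95, 3.20 and 2.84 CPM in late log. The late log values lay within a narrow band below early log 1 and 2 and above early log 3. *OLI1* averaged 3.00 ± 0.185 CPM in late log and 3.91 ± 2.26 CPM in early log (SD, n = 3 each), a log2 fold change of -0.43 ± 0.48 (SE, edgeR adjusted p = 0.436). Without early log 1 the value was -0.06 (edgeR adjusted p = 0.923). Without early log 3 it was -0.84 and passed the test (adjusted p = 0.00153), where 80.8% of all tested genes did.

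**Figure D2:**
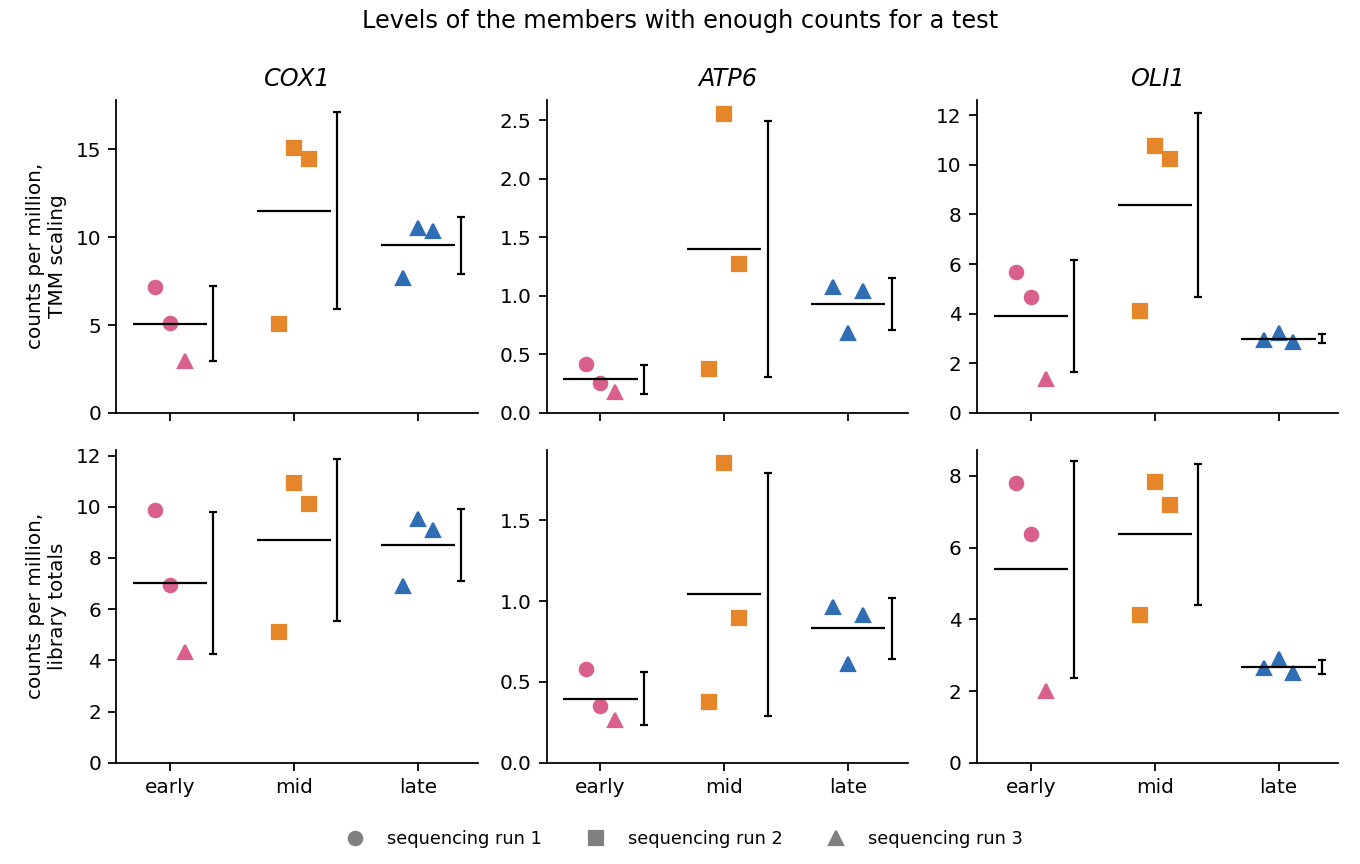
Levels of *COX1*, *ATP6* and *OLI1* by subphase in CPM with TMM scaling (top) and on library totals (bottom), with 1 point per library, the marker showing the sequencing run, a horizontal line at the mean and a bar of ± 1 SD (n = 3). Late log *COX1* values were 7.67 to 10.5 CPM and early log values 2.94 to 7.18 CPM with TMM scaling, while on library totals the subphases overlapped (6.89 to 9.51 CPM in late log and 4.32 to 9.86 CPM in early log).

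In late over early log, 2 of the 3 members that passed the filter on low counts were called, both higher, where 72.1% of all tested genes were called, 33.0% higher and 39.2% lower. With this background a count of 2 says little about the members. The median gene had a log2 fold change of -0.08 with TMM scaling and of -0.68 on library totals, where 14.1% of genes were called higher and 55.3% lower. Relative to the median gene, *COX1* stood 0.94 higher with TMM scaling and 0.95 higher on library totals, *ATP6* stood 1.72 and 1.73 higher, and *OLI1* stood at -0.35 and -0.33.

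In mid over early log, 1 of the 3 tested members was called, where 44.9% of all tested genes were, 20.7% higher and 24.2% lower. On library totals 3.63% were called higher and 35.7% lower, and the median gene had a log2 fold change of -0.89, against -0.12 with TMM scaling. *ATP6* averaged 1.40 ± 1.10 CPM in mid log and 0.286 ± 0.123 CPM in early log (SD, n = 3 each), a log2 fold change of 2.27 ± 0.72 (SE, edgeR adjusted p = 0.0391). *ATP6* reached 10 reads in all 3 mid log libraries and in only 1 early log library. It thus entered this test, too, mainly through the group where it was high. Mid log 1 overlapped the early cultures, and the call did not hold on library totals (1.37, adjusted p = 0.128). Without early log 1, early log 2, early log 3, mid log 2 or mid log 3 the value was 2.65, 2.19, 2.01, 1.48 and 2.31 and did not pass (edgeR adjusted p from 0.0805 to 0.132). Except without early log 3, no gene at all passed in those fits, so they say little about *ATP6*. *COX1* averaged 11.5 ± 5.60 CPM in mid log, against 5.08 ± 2.12 CPM in early log, with a log2 fold change of 1.19 ± 0.52 (SE, edgeR adjusted p = 0.0979). *OLI1* averaged 8.37 ± 3.71 CPM in mid log, against 3.91 ± 2.26 CPM in early log, with a log2 fold change of 1.11 ± 0.60 (SE, edgeR adjusted p = 0.163). Without mid log 1, *COX1* (1.58, edgeR adjusted p = 0.0102) and *ATP6* (2.76, adjusted p = 0.00327) passed the test, where 76.4% of all tested genes did. Without both libraries that stood apart, *COX1*, *ATP6* and *OLI1* all passed, at 1.31, 2.52 and 1.07, where 89.6% of all genes did.

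In late over mid log, none of the 3 tested members was called by edgeR, where 0.460% of all tested genes (27 of 5865) were, 0.307% higher and 0.153% lower. At an unadjusted p below 0.05, 1160 genes (19.8%) were called, *OLI1* among them. *OLI1* averaged 3.00 ± 0.185 CPM in late log and 8.37 ± 3.71 CPM in mid log (SD, n = 3 each), and all late log values lay below all mid log values, as they did for 9.39% of tested genes. Its log2 fold change was -1.63 ± 0.43 (SE, edgeR adjusted p = 0.125), lower than that of all but 0.836% of tested genes. DESeq2's own test called it (-1.65, adjusted p = 0.0110), as 1 of 367 genes. *COX1* stood at -0.42 ± 0.45 (SE, edgeR adjusted p = 0.656) and *ATP6* at -0.71 ± 0.67 (adjusted p = 0.598), and their late and mid log cultures overlapped. Without mid log 1 all 3 members were called lower, at -0.80 for *COX1*, -1.20 for *ATP6* and -1.98 for *OLI1*, where 56.1% of all genes were called. Without mid log 2 the value for *ATP6* turned to 0.08. Each of the 3 comparisons shares the libraries of a subphase with each of the others.

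**Figure D3:**
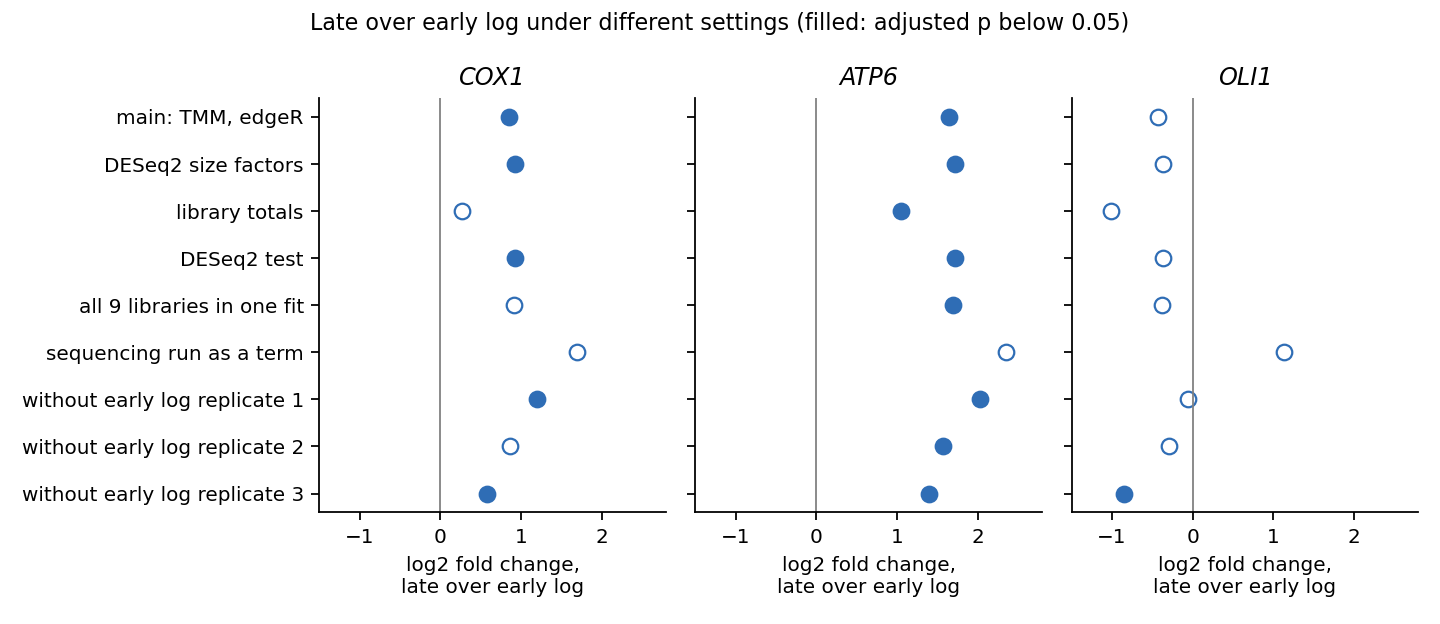
Log2 fold changes of *COX1*, *ATP6* and *OLI1* in late over early log (horizontal axis) under the settings named at the left, filled where the adjusted p was below 0.05. *ATP6* lay between 1.05 and 2.35 under each setting shown, whereas *COX1* was 0.27 on library totals and *OLI1* ran from -1.01 on library totals to 1.13 with the sequencing run as a term. The run term rests on early log 3 alone against late log.

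A ratio of members within a library does not depend on the scaling between libraries. There were 0.791, 0.916 and 0.465 *OLI1* reads per *COX1* read in early log, 0.811, 0.716 and 0.711 in mid log, and 0.384, 0.304 and 0.274 in late log. Late log lay wholly below both earlier subphases. The ratio averaged 0.321 ± 0.0569 in late log and 0.724 ± 0.233 in early log (exact two-sided permutation p = 0.1, n = 3 each), the smallest p this design allows, and 0.171 after adjustment over the 12 ratio tests made. Against mid log, at 0.746 ± 0.0567, the p was again 0.1 (exact permutation, 0.171 adjusted, n = 3 each), and mid log did not differ from early log beyond the spread (exact permutation p = 0.9, n = 3 each). The ratio also followed the sequencing run. In run 3 it was 0.465 in early log 3 and 0.274 to 0.384 in late log, while in runs 1 and 2 it was 0.711 to 0.916. The exact binomial 95% interval of early log 3, 0.329 to 0.650, overlapped that of late log 1, 0.283 to 0.517. The part of the run in this ratio cannot be told apart from that of the subphase with 1 early library in run 3. The part of harvest density within a subphase was not tested.

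**Figure D4:**
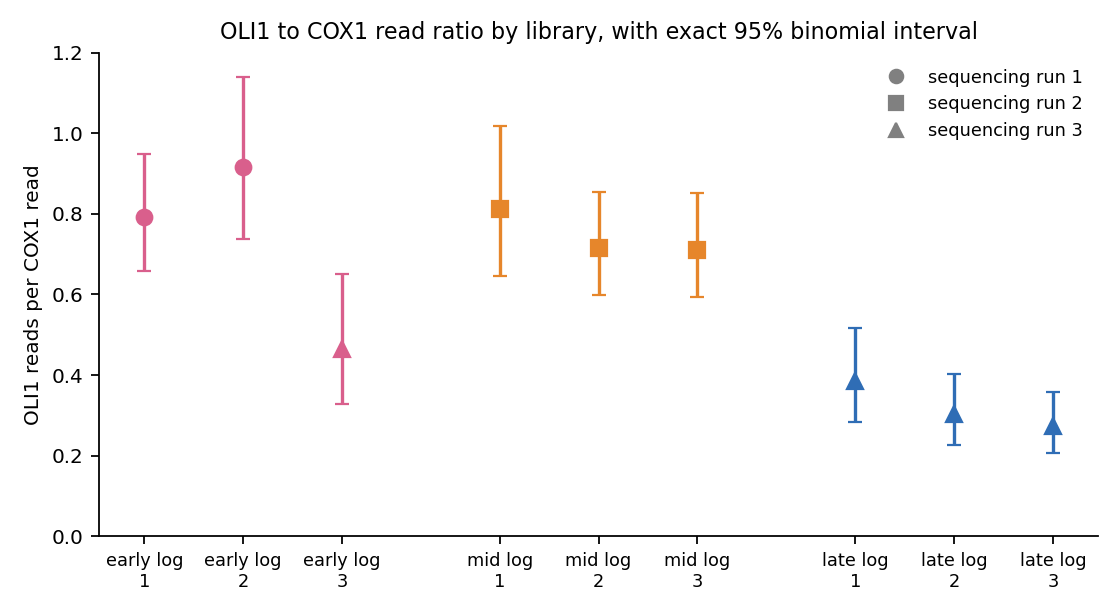
*OLI1* reads per *COX1* read in each library (points) with the exact 95% binomial interval, coloured by subphase, with the sequencing run as the marker shape. The 4 libraries of run 3, early log 3 and all of late log, had ratios of 0.274 to 0.465, below the 0.711 to 0.916 of the other 5.

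*ATP6* relative to *COX1* went the other way. There were 0.0586, 0.0503 and 0.0614 *ATP6* reads per *COX1* read in early log, 0.0743, 0.170 and 0.0884 in mid log, and 0.14, 0.0645 and 0.10 in late log. Early log was lowest, but its highest ratio (0.0614 in early log 3) was close to the lowest of late log (0.0645 in late log 2). The ratio of early log 3, in run 3, was near those of early log 1 and 2, in run 1. It rests on 7 *ATP6* reads, and no counting interval was computed for this ratio. The part of the run in it was not tested. The ratio averaged 0.102 ± 0.0379 in late log and 0.0568 ± 0.00579 in early log (exact permutation p = 0.1, adjusted 0.171, n = 3 each). Within run 3 alone, *ATP6* was at 0.613 to 0.966 CPM on library totals in late log and at 0.265 CPM in early log 3, and *COX1* at 6.89 to 9.51 CPM in late log and at 4.32 CPM in early log 3. *OLI1* was at 2.50 to 2.89 CPM in late log and at 2.01 CPM in early log 3. With the run as a term, *COX1*, *ATP6* and *OLI1* stood at 1.70, 2.35 and 1.13 in late over early log. All 9 libraries entered that fit, but only early log 3 shares a run with late log. The estimate therefore rests on the same early library as the values within run 3 and adds no separate support. It is given as an effect size only.

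The remaining members gave too few reads for a comparison. *VAR1*, the only ribosomal protein gene of the mitochondrial genome, had 8, 9 and 0 reads in early log, 3, 3 and 7 in mid log, and 3, 1 and 3 in late log. *COX3* had 5, 2 and 1 reads in early log, 2, 3 and 0 in mid log, and 6, 1 and 2 in late log. *COB*, the cytochrome b gene, had 3, 3 and 1 reads in early log, 3, 2 and 2 in mid log, and 0, 1 and 1 in late log. *COX2*, whose product takes electrons from cytochrome c, had 5, 2 and 1 reads in early log, 1 in each mid log library, and 2, 0 and 0 in late log. Their groups overlapped or differed by single reads. Fitted without a filter on low counts, these 4 genes gave adjusted p of 0.363 to 0.928 over the 3 comparisons (edgeR). No difference was detectable at this depth.

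Of the 47 other mitochondrial rows, 32 had no read, including all 24 tRNA rows. The rows with the highest mean counts were SCEI, a homing endonuclease reading frame in the intron of the large rRNA gene (1414 reads), 21S_RRNA, the large rRNA (1129), AI5_BETA, a reading frame in a *COX1* intron (916), and 15S_RRNA, the small rRNA (318). Relative to *COX1*, AI5_BETA was lowest in the libraries where *OLI1* was. It had 0.593, 0.710 and 0.272 reads per *COX1* read in early log, 0.594, 0.598 and 0.684 in mid log, and 0.213, 0.134 and 0.170 in late log, so the 4 run 3 libraries again had the lowest values. In late over mid log AI5_BETA stood at -2.33 ± 0.50 on the log2 scale (SE, edgeR adjusted p = 0.0917) and SCEI at -1.89 ± 0.42 (adjusted p = 0.0982). The late log values of each lay below all its mid log values, as they did for 9.39% of tested genes. SCEI rose in mid over early log, by 1.71 ± 0.43 (SE, edgeR adjusted p = 0.0201), to 11.5 ± 5.16 CPM in mid log against 3.54 ± 0.672 CPM in early log (SD, n = 3 each). In that comparison 20.7% of all tested genes were called higher. AI2, another *COX1* intron frame, named here after its values were seen, fell in late over early log, to 0.182 ± 0.0863 CPM in late log against 0.967 ± 0.530 CPM in early log (log2 fold change -2.45 ± 0.62 SE, edgeR adjusted p = 0.00929). AI2 had 51, 42 and 14 reads in early log and 6, 3 and 3 in late log. It therefore entered the test through the group where it was high, and 39.2% of all tested genes were called lower. Within run 3, AI2 was at 0.106 to 0.252 CPM on library totals in late log and at 0.530 CPM in early log 3. AI5_BETA stood at -0.90 ± 0.56 in late over early log (SE, edgeR adjusted p = 0.183), and its groups overlapped. Within run 3, AI5_BETA was at 1.27 to 1.55 CPM on library totals in late log and at 1.17 CPM in early log 3. *COX1*, the host of AI2 and AI5_BETA, stood at 0.86 in late over early log with TMM scaling and at 0.27 on library totals.

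The nuclear genes for the partners of these proteins were counted from lists of pathway members. All 9 nuclear subunits of cytochrome c oxidase rose in late over early log, where 33.0% of all tested genes did, and their median stood at 1.03 on the log2 scale, against -0.08 over all genes. *COX5B*, a subunit isoform used when oxygen is low, rose to 69.8 ± 1.45 CPM in late log, against 17.5 ± 7.39 CPM in early log (log2 fold change 1.94 ± 0.28 SE, edgeR adjusted p = 0.000691). *COX9*, a small structural subunit, rose by 1.41 ± 0.14. Of the 9 nuclear bc1 subunits 5 rose and 1 fell (median 0.82). *QCR10* rose by 1.76 and *QCR9* by 1.43, both small subunits, while *QCR6*, the acidic subunit near cytochrome c1, fell by 1.27. Of the 14 nuclear ATP synthase subunits 10 rose and 1 fell (median 0.94). *ATP15*, the epsilon subunit of the rotor stalk, rose to 449 ± 27.2 CPM in late log, against 96.9 ± 6.75 CPM in early log (log2 fold change 2.16 ± 0.12 SE, edgeR adjusted p = 3.28e-05). *ATP18* of the membrane part rose by 1.93, and *ATP3*, the gamma subunit, fell by 0.66. On library totals, an alternative chosen after seeing the data, 5 of the cytochrome c oxidase list, 2 of the bc1 list and 6 of the ATP synthase list were higher and 0, 2 and 4 lower, with medians of 0.43, 0.22 and 0.34, and the 8 genes named here kept their signs. Over all genes 14.1% were higher and 55.3% lower on that scale. Without early log 3 the lists had 9, 5 and 10 genes higher and 0, 1 and 3 lower. In mid over early log they had 1, 0 and 2 members higher and 0, 2 and 2 lower, where 20.7% of all tested genes were higher and 24.2% lower, and in late over mid log only *COX5B* was called from these 3 lists (1.17 ± 0.16 SE, edgeR adjusted p = 0.0397).

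**Figure D5:**
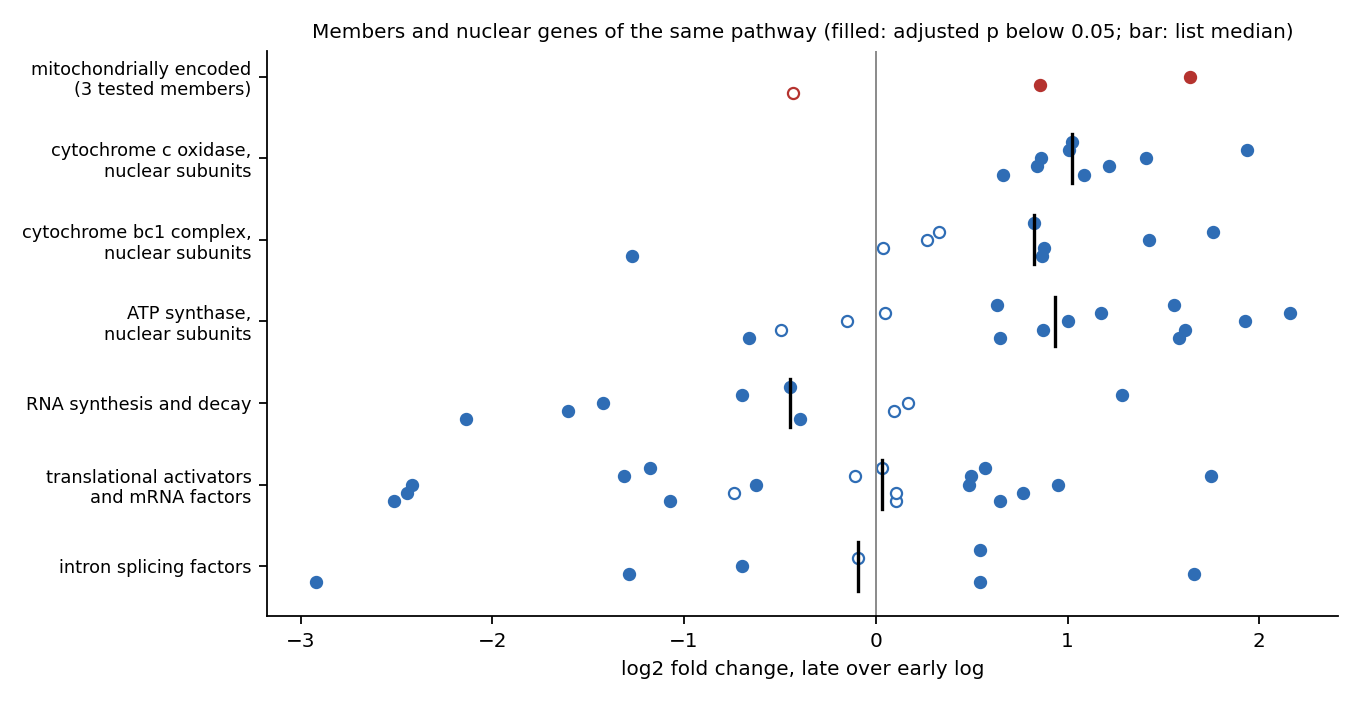
Log2 fold changes in late over early log (horizontal axis) of the 3 tested members and of the nuclear genes in 6 pathway lists (rows), 1 point per gene, filled where the adjusted p was below 0.05, with a bar at each list's median. All 9 nuclear cytochrome c oxidase genes were to the right of 0, as were *COX1* and *ATP6*, while the RNA synthesis and decay list had its median at -0.45.

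Of 9 nuclear genes for mitochondrial RNA synthesis and decay, 1 rose and 6 fell in late over early log (median -0.45), where 39.2% of all tested genes fell. *MTF1*, the specificity factor of the RNA polymerase, was the one that rose, by 1.29 ± 0.16 (SE, edgeR adjusted p = 0.00031), while *RPO41*, the polymerase, stood at 0.10 ± 0.12 (adjusted p = 0.508). *PET127*, which takes part in mitochondrial RNA processing and decay, fell to 3.86 ± 0.245 CPM in late log, against 16.4 ± 1.66 CPM in early log (log2 fold change -2.14), and *NAM1*, which links transcription with later steps, fell by 1.61. In mid over early log 0 of these 9 rose and 5 fell, where 24.2% of all tested genes fell, and in late over mid log edgeR called 0 of them, where 0.460% were called. On library totals 8 of the 9 fell in late over early log, where 55.3% of all genes did with a median of -0.68. *RPO41* was among them at -0.50, above that median (edgeR adjusted p = 0.00881).

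Of 19 translational activators and mRNA factors, 7 rose and 7 fell in late over early log (median 0.03), shares near the 33.0% higher and 39.2% lower of all tested genes. For *COX1*, the activator *MSS51* rose to 178 ± 2.89 CPM in late log, against 50.9 ± 24.6 CPM in early log (log2 fold change 1.75 ± 0.31 SE, edgeR adjusted p = 0.00188), while the other *COX1* activator, *PET309*, fell by 1.18 ± 0.19 (adjusted p = 0.00117). For *OLI1*, *AEP1* fell to 4.58 ± 0.936 CPM in late log, against 25.2 ± 1.31 CPM in early log (log2 fold change -2.51 ± 0.19 SE, edgeR adjusted p = 5.44e-05), *ATP25* fell by 0.63, and *AEP2* rose by 0.49. For *ATP6*, the activator *ATP22* stood at -0.11 ± 0.18 (SE, edgeR adjusted p = 0.599). Of the listed factors for the *ATP8* and *ATP6* mRNA, *NCA2* rose by 0.57 (edgeR adjusted p = 0.022). *NCA3* (0.10) and *AEP3* (0.11) were not called. For *COX2*, *PET111* stood at 0.03 ± 0.18 (SE, edgeR adjusted p = 0.868). For *COX3*, *PET122* rose by 0.95 and *PET54* by 0.49 while *PET494* fell by 2.45, and for *VAR1*, *SOV1* fell by 2.42. Of the factors for *COB*, *CBS1* fell by 1.32 and *CBP1* by 1.08, *CBS2* rose by 0.65 and *CBP3* by 0.77, and *CBP6* stood at -0.74 (edgeR adjusted p = 0.0948). In mid over early log 2 of the 19 rose and 6 fell, where 20.7% of all tested genes rose and 24.2% fell, and 0 were called by edgeR in late over mid log. Of 7 splicing factors 3 rose and 3 fell in late over early log, again near the shares over all genes. *MRS1*, needed for introns of *COB* and *COX1*, rose by 1.66 and *COX24* by 0.55, while *CBP2*, needed for an intron of *COB*, fell by 2.92 and the RNA helicase gene *MSS116* by 1.29. On library totals, where 14.1% of all genes were higher and 55.3% lower, 1 activator was higher and 10 were lower, and 1 splicing factor was higher and 4 were lower. *AEP2* (-0.11), *PET54* (-0.10), *COX24* (-0.05), *NCA2* (-0.03), *NCA3* (-0.49), *AEP3* (-0.50) and *PET111* (-0.56) turned sign there. *PET122* (0.34), *CBS2* (0.05) and *CBP3* (0.17) no longer passed the test.

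The nuclear genes whose log2 CPM over the 9 libraries was most like the mean of the 8 members were *GNP1* (Pearson r = 0.934), *CTP1* (0.925), *ARF1* (0.922), YMR304C-A (0.915) and *RPS0B* (0.915), among 2289 candidates. The 9 points share their library scaling, and the values are a description.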

How the data were processed

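Poly(A)-selected RNA from 9 cultures was sequenced as single-end reads. Per the labels, the authors deposited raw counts of reads per gene for each library, made by aligning to R64 with STAR and counting with HTSeq 0.12.3 (the paper names another HTSeq release). The strand setting, feature type and counting mode are not given in the sources used here. Of the reads in a library, 6.65% to 10.7% fell on no gene, 0.281% to 0.511% on more than 1 gene and 7.46% to 11.2% on more than 1 place, and these lines were set aside. Gene symbols came from RefSeq's table of R64, which matched 6047 of 7127 identifiers.

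Counts were fitted per pair of subphases in R 4.3.3 with edgeR 4.0.16 (filterByExpr with a minimum count of 10, TMM, quasi-likelihood test, Benjamini-Hochberg at 0.05 over all genes tested). Standard errors were derived from the F statistic. Shares and ratios were compared by exact permutation. DESeq2 1.42.0, other scalings, other filters, a replicate block, the sequencing run and left-out libraries were alternatives. The test was tested on simulated data. The members and the gene lists were chosen with earlier results of these data known. Named nuclear genes were, per list, up to 2 with the largest rises and 2 with the largest falls in late over early log whose groups did not overlap. Also named were factors of a single member or of the *ATP8* and *ATP6* mRNA, and the 5 genes most like the members. *COX4*, *CYT1*, *ATP1* and *ATP14* were named only as examples of read counts. Samples were grouped by their titles, and nothing in the labels says more of how the 3 cultures of a subphase were kept apart, so p-values measure the spread between these libraries. Intervals and floors cover counting error only.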

Additional observations from a re-analysis of the deposited data

How the results depend on the processing

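Late over early log had 2 members called, where 72.1% of all tested genes were. The count was 1 on library totals (69.4% of all tested genes called) and without a filter (63.5%). It was also 1 with all 9 libraries in one fit (58.6%) and with the replicate block (70.7%). With at least 10 counts in every library it was 0 (72.3%, *ATP6* is then not tested). When single libraries were left out it was 1 to 3 (63.7% to 80.8%). It was 0 with the sequencing run as a term (24.1%). The run term, which sets early log 3 alone against late log, turned *OLI1* to 1.13. Mid over early log had 1 member called, where 44.9% of all tested genes were. The count was 0 on library totals (39.4%) and with the replicate block (44.5%). With at least 10 counts in every library it was 0 as well (42.4%), but *ATP6*, the member called, is then not tested. It was 2 with DESeq2's own test (53.6%) and with all 9 libraries (57.6%), and 3 without early log 3 and mid log 1 (89.6%). When single libraries were left out it was 0 to 2 (0% to 76.4%). Late over mid log had 0 members called, where 0.460% of all tested genes were. The count was 1 with DESeq2's own test (6.26%) and 0 to 3 when single libraries were left out (0% to 56.1%). Leaving out single libraries gave *ATP6* a log2 fold change of -1.20 to 0.084 in late over mid log, the 0.084 without mid log 2. Where no value shows it, the cause was not tested. The ratio of shares ran from 0.738 to 1.17 in late over early log, where leaving out early log 1 gave the 1.17, from 0.987 to 1.57 in mid over early log, where leaving out early log 3 gave the 0.987, and from 0.623 to 0.866 in late over mid log. On the TMM scale, chosen after seeing the data, these ratios were 1.43, 2.25 and 0.635.

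The labels do not say whether cultures with the same replicate number were paired, and the values here do not settle it. Same-numbered libraries had deviations that correlated between -0.358 and 0.380, and 3, 4 and 3 of the 6 libraries in late over early, mid over early and late over mid log correlated best with their own number. With the replicate block, 4210, 2648 and 1 genes were called in those comparisons, against 4294, 2674 and 27 without it. Over all genes, calls in late over mid log ran from 1 with the block to 367 with DESeq2, 223 in one fit of all 9 libraries and 453 on library totals, and reached 3318 without mid log 1. Those in late over early log fell to 1452 with the run as a term. Those in mid over early log fell to 0 without early log 1, early log 2, mid log 2 or mid log 3 and reached 4592 without mid log 1 and 5360 without early log 3 and mid log 1. Poly(A) selection and 3458 reads over 9 libraries limit all values: 5 of the 8 members shared 88 reads.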
